A study of Mus musculus with 4 samples.

Results

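SRSF1 and SRSF2 left different peak patterns on 4 genes of secreted matrix-associated proteins in mouse embryonic fibroblasts (MEFs), cultured connective tissue cells of the embryo. Listed peaks of SRSF1 outnumbered those of SRSF2 on Thbs1 (23 and 10) and Postn (13 and 2), only SRSF2 peaks were listed on Timp1 (0 and 4), and the proteins lay on nearly the same positions along Sparc (13 and 18). The 83 peaks of these genes, 49 of SRSF1 and 34 of SRSF2, were taken from 107319 peaks in all, 50983 of SRSF1 and 56336 of SRSF2. Peaks of Thbs1, Postn and Timp1 were those whose host unit, the transcript that the authors gave in the peak name, was a RefSeq transcript of that gene. Sparc had no RefSeq-named unit, so its peaks were those on the minus strand of chromosome 11 between 55207500 and 55234000 (mm9). All 31 peaks there belonged to 1 numbered cluster without a gene name, and that this cluster is Sparc rests on the position alone. The genes were selected on these same measurements, their SRSF1 and SRSF2 peak numbers, positions, scores and overlap, so the values below describe them, with no test.

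The data are CLIP-seq, in which proteins are crosslinked to RNA with ultraviolet light, 1 protein is precipitated and the RNA fragments that come with it are sequenced. SRSF1 was measured in SRSF1 tet-repressible MEFs and SRSF2 in SRSF2 tet-repressible MEFs, both kept without tetracycline and precipitated through an HA tag on the protein. With 1 library for each protein and a line of its own for each, protein, cell line and library cannot be told apart, and no value has a replicate error. The series also lists SRSF1 libraries after siRNA treatment (control, or directed at SRSF2), which were not analysed here. Of 10 fibroblast markers 1, Col1a1, had a named unit with peaks, against 0 of 12 markers of macrophages, endothelium and epithelium, but most host units carry no gene name, so this is a weak check of the label.

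SR proteins bind short stretches of exonic RNA and help decide which exons are kept; they also act in export and translation of mRNA. Matricellular proteins are secreted into the matrix, where they act on cell receptors, growth factors and matrix assembly more than as structural fibres. Thbs1 encodes thrombospondin 1, which binds CD36 and CD47 on cells and activates latent TGF-beta. Postn encodes periostin, a ligand of integrins whose transcripts are known to be spliced in alternative forms in the part that encodes the C-terminal domain. Sparc encodes osteonectin, a collagen-binding glycoprotein. Timp1 encodes an inhibitor of matrix metalloproteinases that is also a secreted signalling protein and is grouped here with the matricellular genes. The study asked where SR proteins cooperate and where they compete, and these genes hold both peaks at the same positions and peaks of a single protein.

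In order of the SRSF1 share of peaks, Postn came first with 86.7% (exact 95% binomial interval 59.5 to 98.3, 15 peaks), then Thbs1 with 69.7% (51.3 to 84.4, 33 peaks), Sparc with 41.9% (24.6 to 60.9, 31 peaks) and Timp1 with 0% (0 to 60.2, 4 peaks). These intervals cover counting error only, and peaks of 1 transcript are not independent molecules. The intervals of every pair of these genes overlap. Over all peaks the SRSF1 share was 47.5%. Together the 4 genes had a share of 59.0% (47.7 to 69.7), which was 52.0% without Thbs1 and 69.2% without Sparc. Thbs1 and Postn, the members with a gene symbol and at least 10 peaks, both had at least 2 times as many SRSF1 as SRSF2 peaks, which held for 7.77% of the 528 such genes, while the reverse ratio held for 15.2%. The members were picked for these counts, so nothing is read from that share. Thbs1 no longer reached the ratio of 2 with merged peaks (14 and 8), with a common lowest score (19 and 10) or with numbered peaks (27 and 18). The common lowest score sets 1 cut for both lists, whose scores may not be comparable.

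**Figure D1:**
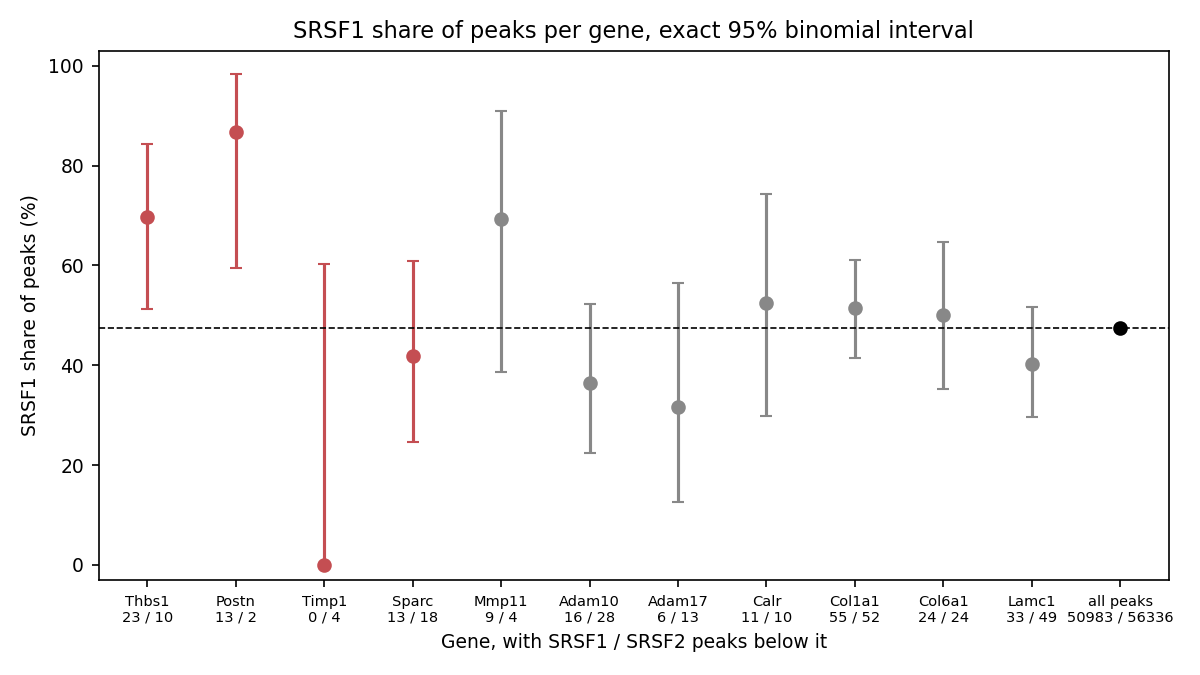
SRSF1 share of peaks in percent for the 4 genes (red), for genes of the matrix lists with at least 5 peaks (grey) and over all peaks (black, dashed line at 47.5%), with exact 95% binomial intervals and the numbers of SRSF1 and SRSF2 peaks under each name. Postn lies at 86.7%, Thbs1 at 69.7%, Sparc at 41.9% and Timp1 at 0%.

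On Thbs1 (chromosome 2, plus strand, peaks from 117937680 to 117952543, a span of 14.9 kb) SRSF1 peaks were dense at the 5′ end of that span. The first 9 SRSF1 peaks, from 117937680 to 117939007, lay before the first listed SRSF2 peak of the gene, with scores of 14 to 26. The meaning of the deposited score is not stated, and it ranks peaks within 1 list only. Cut into 3 equal parts from 5′ to 3′, the span held 13, 8 and 2 SRSF1 peaks and 5, 3 and 2 SRSF2 peaks. The first part thus held 13 of 23 SRSF1 and 5 of 10 SRSF2 peaks.

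The highest SRSF1 score on Thbs1, 46, belonged to the peak at 117943296 to 117943326, which covered a whole SRSF2 peak at 117943301 to 117943323 (score 21). The second highest, 45, lay at 117944882 to 117944910, where the nearest SRSF2 midpoint was 206.5 nt away, and the next, 32, lay at 117940487 to 117940533 and overlapped an SRSF2 peak. These peaks rank high among all SRSF1 peaks, since 99.6%, 99.6% and 99.1% of that list had a lower score. The highest SRSF2 score, 33, lay at 117940756 to 117940791, where the nearest SRSF1 midpoint was 263.5 nt away, and the next, 24, at 117939458 to 117939485, was 475.5 nt from SRSF1. The 2 highest-scoring SRSF2 peaks of Thbs1 thus lay apart from listed SRSF1 peaks, whereas of the 3 highest SRSF1 peaks 2 met SRSF2. Next came a pair of SRSF2 peaks with a score of 21, the one inside the top SRSF1 peak and another at 117945092 to 117945113.

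Few SRSF1 peaks of Thbs1 were overlapped. Of 23 SRSF1 peaks 3 (13.0%, interval 2.78 to 33.6) shared at least 1 nt with SRSF2 in the same orientation, and of 10 SRSF2 peaks 3 (30%, 6.67 to 65.2) met SRSF1, against 38.7% and 35.2% over all peaks. Of the genic units with at least 10 peaks, 9.91% had a lower overlapped share of SRSF1 peaks than Thbs1 and 38.3% a lower one of SRSF2 peaks. The pairs lay at 117940420 to 117940452 (SRSF2 peak 117940429 to 117940445), 117940487 to 117940533 (117940491 to 117940507) and 117943296 to 117943326 (117943301 to 117943323). In all 3 the SRSF2 peak lay wholly inside the SRSF1 peak, with midpoints 1 to 11 nt apart. The median distance to the nearest midpoint of the other protein was 475.5 nt for SRSF1 and 235 nt for SRSF2, against 57.5 and 78.5 nt over all peaks. The most remote SRSF1 peak, at 117948267 to 117948273, was 3004 nt from SRSF2, and the most remote SRSF2 peak, at 117952538 to 117952543 at the 3′ end of the span, was 728.5 nt from SRSF1.

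The lists hold only some of the peaks that the authors had numbered, and this touches Thbs1 more in the SRSF2 list. Peak numbers follow the coordinates in all 7594 genic SRSF1 units and all 7447 genic SRSF2 units, so a missing number can be placed. A peak dropped after the highest listed number of a unit leaves no gap and cannot be seen. On Thbs1 the SRSF1 list lacked 4 of 27 numbers and the SRSF2 list 8 of 18, of which 3 came before the first listed SRSF2 peak and so lay 5′ of 117939458. Over all genic units 17.6% of SRSF1 and 19.9% of SRSF2 numbers were missing. With numbered in place of listed peaks the SRSF1 share of Thbs1 was 60.0%, and the 5′ stretch that shows SRSF1 alone may have held up to 3 SRSF2 peaks. Likewise SRSF1 number 13 fell between 117940533 and 117941587, a stretch that holds the highest-scoring SRSF2 peak. An unlisted SRSF1 peak may therefore have lain nearer to that SRSF2 peak than the listed ones. SRSF2 number 15 fell between 117945113 and 117951271, the stretch that holds the most remote SRSF1 peak. Its distance of 3004 nt is therefore to listed SRSF2 peaks only. Just before the span, a region called nongenic by the authors had a peak of each protein, SRSF1 at 117937633 to 117937657 and SRSF2 at 117937646 to 117937657, both with a score of 14 and ending 22 nt before the first Thbs1 peak. This SRSF2 peak was the nearest one to the first 6 SRSF1 peaks of Thbs1, at midpoint distances of 47 to 784 nt, and enters the distances given above but not the counts of Thbs1 peaks.

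**Figure D2:**
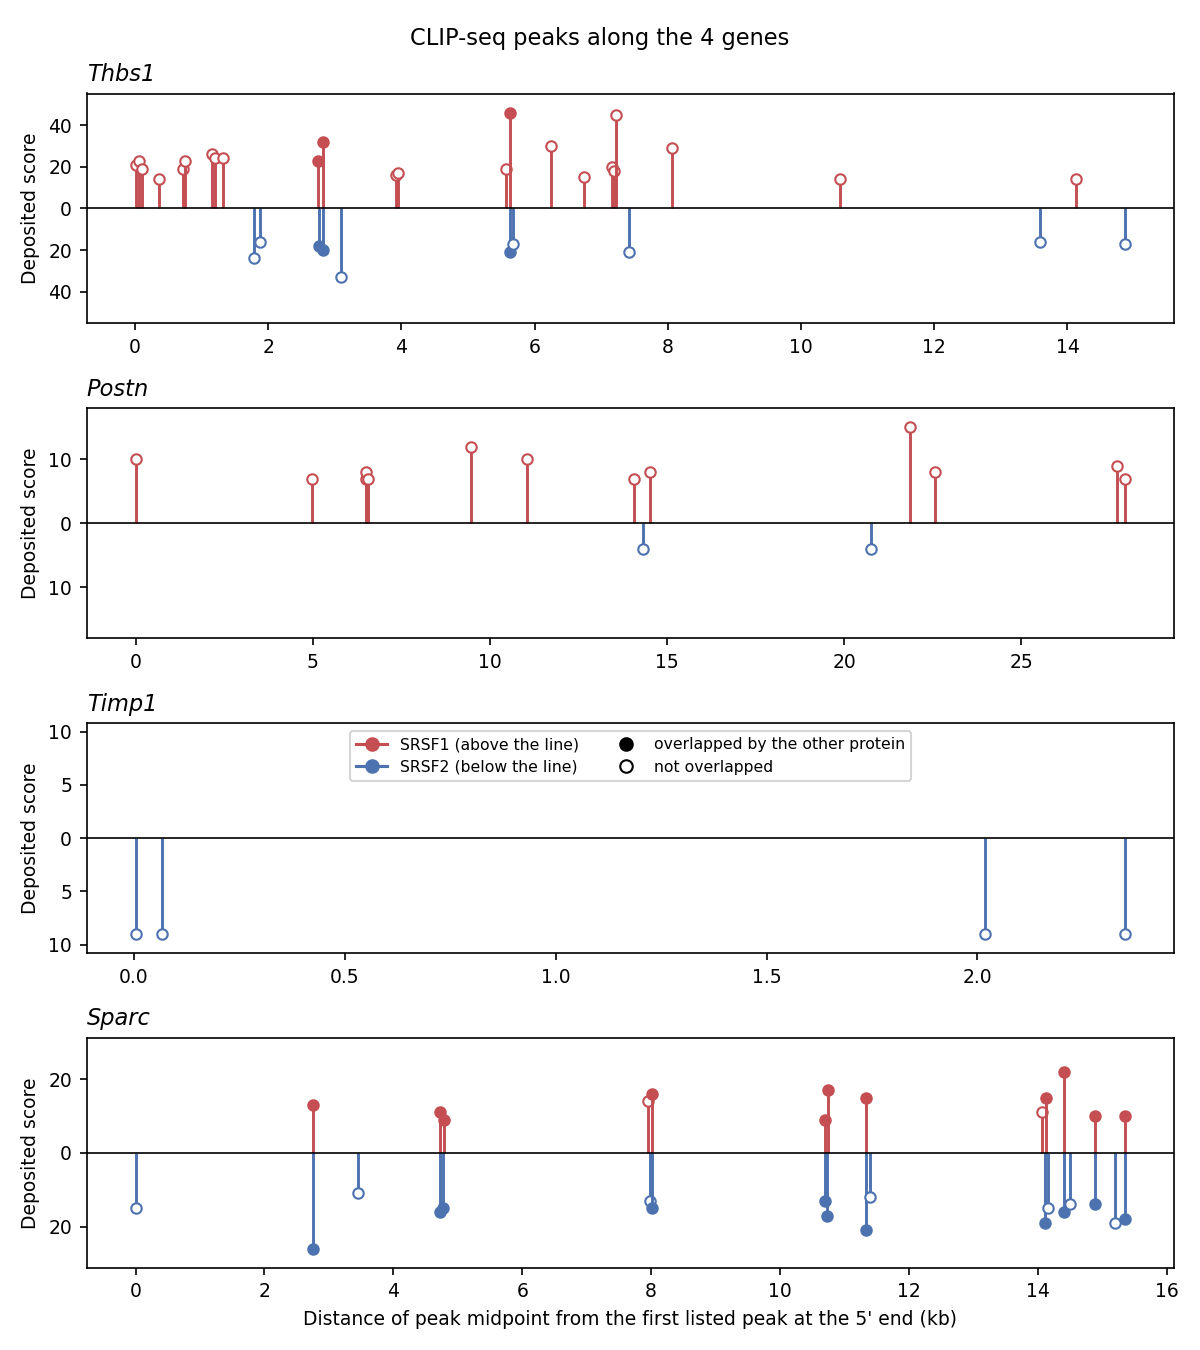
Peaks along the 4 genes, at the distance of their midpoints in kb from the first listed peak at the 5′ end, with the deposited score as height, SRSF1 above and SRSF2 below the line; heights can be compared within a protein only. Filled circles mark overlapped peaks, which are 3 SRSF1 peaks on Thbs1 and 11 on Sparc, and none on Postn or Timp1.

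Postn had SRSF1 peaks in all 3 parts of its span and 2 SRSF2 peaks, neither on an SRSF1 peak. The span of its peaks (chromosome 3, plus strand, 54166596 to 54194525) was 27.9 kb, and its 3 equal parts held 5, 4 and 4 SRSF1 peaks and 0, 1 and 1 SRSF2 peaks. The SRSF1 peaks covered 276 nt, and none was listed between 54181121 and 54188431. Per kb of span that is 0.465 SRSF1 and 0.0716 SRSF2 peaks, where Thbs1 had 1.55 and 0.673. The SRSF1 scores of Postn ran from 7 to 15 with a median of 8, the median of the whole list. The highest, 15, belonged to the widest Postn peak, 52 nt at 54188431 to 54188482, followed by 12 at 54176052 to 54176080 and 10 at 54166596 to 54166622 and at 54177627 to 54177655.

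The SRSF2 peaks of Postn lay at 54180907 to 54180916 and 54187337 to 54187359 and both had a score of 4, the lowest in the SRSF2 list. The first was 201.5 nt from an SRSF1 midpoint and the second 1108 nt. No SRSF1 peak of Postn was overlapped, 0 of 13 (interval 0 to 24.7), and neither was an SRSF2 peak, 0 of 2 (0 to 84.2). Of 2948 genic units with at least 10 peaks, 5.83% had no overlapped SRSF1 peak, which is a background for the count and no test of it. Those units had a median SRSF1 share of 47.1%. With 2 listed SRSF2 peaks on Postn, few of its SRSF1 peaks could be overlapped at all. The first SRSF1 peak, at 54166596 to 54166622, was 14302.5 nt from the nearest SRSF2 midpoint and the median over the 13 was 6951 nt. Both SRSF2 peaks had scores at the lower end of the list, so the SRSF1 share of Postn became 100% when peaks below the median score were left out. One numbered SRSF2 peak 5′ of 54180907 and 3 numbered SRSF1 peaks were not listed.

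Timp1 had SRSF2 peaks over a span of 2.36 kb, from the first to the last of them, and no listed SRSF1 peak. The 4 SRSF2 peaks (chromosome X, plus strand) lay at 20448179 to 20448189, 20448240 to 20448253, 20450192 to 20450203 and 20450523 to 20450534, and were 11 to 14 nt wide. All 4 had the same score of 9, so none stands out, and 51.0% of the SRSF2 list had a lower score. Peak numbers 3 and 4, between the second and the third listed peak, were missing, so the empty middle of the span held 2 numbered SRSF2 peaks. With no SRSF1 number listed, dropped SRSF1 peaks of Timp1 could not be seen. The nearest SRSF1 midpoint was 12251 to 14595.5 nt away and lay in another unit. Of the 624 genic units with 4 peaks, 7.69% had no SRSF1 peak. With so few peaks the interval reaches 60.2%, so an SRSF1 share as in all peaks was within counting error.

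On Sparc (chromosome 11, minus strand, peaks from 55208127 to 55223488, a span of 15.4 kb) most SRSF1 peaks lay on an SRSF2 peak. Of 13 SRSF1 peaks 11 (84.6%, interval 54.5 to 98.1) overlapped SRSF2, and of 18 SRSF2 peaks 11 (61.1%, 35.8 to 82.7) overlapped SRSF1. The other 2 SRSF1 peaks had an SRSF2 midpoint within 46 nt, so that no SRSF1 peak of Sparc was farther than 50 nt from SRSF2. The median distance was 3 nt for SRSF1 and 5.75 nt for SRSF2. In all 11 pairs the midpoints were within 10 nt of each other, and in 6 the SRSF1 peak lay wholly inside the SRSF2 peak and in 2 the reverse. Of all genic units with at least 10 peaks, 97.5% had a lower overlapped share of SRSF1 peaks than Sparc and 89.0% a lower one of SRSF2 peaks, where the medians were 40% and 35.7%.

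Both proteins were most frequent toward the 3′ end of the Sparc peak span. From 5′ to 3′, the 3 equal parts of the span held 3, 2 and 8 SRSF1 peaks and 5, 2 and 11 SRSF2 peaks, so that the part with most peaks was the last, where on Thbs1 it was the first. The highest SRSF1 score, 22, lay at 55209062 to 55209085 on an SRSF2 peak with a score of 16 at 55209066 to 55209086. The next SRSF1 scores, 17 at 55212737 to 55212761 and 16 at 55215462 to 55215494, were also on SRSF2 peaks, at 55212742 to 55212761 (17) and 55215468 to 55215486 (15).

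SRSF2 had listed peaks without SRSF1 at the 5′ end of the Sparc peak span, and others near its 3′ end. That span runs from the first to the last listed peak, and the extent of the gene was not read. The first listed SRSF2 peak, at 55223473 to 55223488 with a score of 15, was 2748 nt from the nearest SRSF1 midpoint. Another at 55220031 to 55220038 (score 11) was 698 nt away. The highest SRSF2 score, 26, lay at 55220720 to 55220756 and covered the first SRSF1 peak from the 5′ end, at 55220722 to 55220743 (score 13). Scores of 21 at 55212122 to 55212171 and of 19 at 55209358 to 55209381 were on SRSF1 peaks too, and the other SRSF2 peak with a score of 19, at 55208272 to 55208303, was 147 nt from SRSF1. Missing numbers were 3 of 16 for SRSF1 and 2 of 20 for SRSF2. On this minus strand the highest number is the most 5′. An SRSF1 peak dropped 5′ of 55220743 would therefore leave no gap. SRSF1 numbers 3 and 4 fell between 55208598 and 55209062. That stretch holds the SRSF2 peak at 55208982 to 55209007, so an unlisted SRSF1 peak may have lain on or near it.

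**Figure D3:**
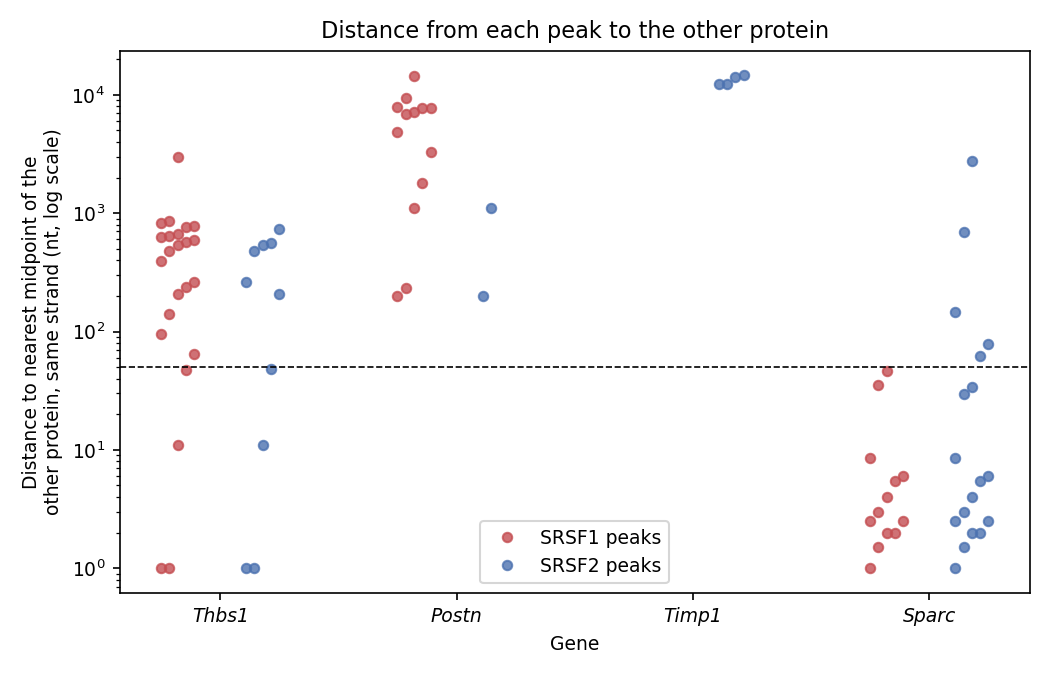
Distance in nt (log scale) from the midpoint of each SRSF1 peak (red) and SRSF2 peak (blue) to the nearest midpoint of the other protein on the same strand, with a dashed line at 50 nt. All 13 SRSF1 peaks of Sparc lie below the line, against 4 of 23 on Thbs1 and 0 of 13 on Postn. The 4 on Thbs1 include its first peak, whose nearest SRSF2 peak, 47 nt away, was called nongenic by the authors.

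Joining peaks of both proteins at gaps of at most 50 nt gave 49 sites, of which 11 held both, 23 SRSF1 alone and 15 SRSF2 alone. Sparc had 13 sites, 9 with both proteins, 0 with SRSF1 alone and 4 with SRSF2 alone. Thbs1 had 20, of which 2 held both, 12 SRSF1 alone and 6 SRSF2 alone, and Postn had 13, of which 0 held both, 11 SRSF1 alone and 2 SRSF2 alone. Timp1 had 3, all with SRSF2 alone. Only peaks assigned to the genes were joined, so the nongenic SRSF2 peak ending 22 nt before the first Thbs1 peak was left out. With it the first Thbs1 site, counted as SRSF1 alone, would hold both proteins. Thbs1 and Sparc had similar spans and total numbers of peaks, and shared sites made up 2 of 20 and 9 of 13; both genes were picked with their overlap known, so this is a description.

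**Figure D4:**
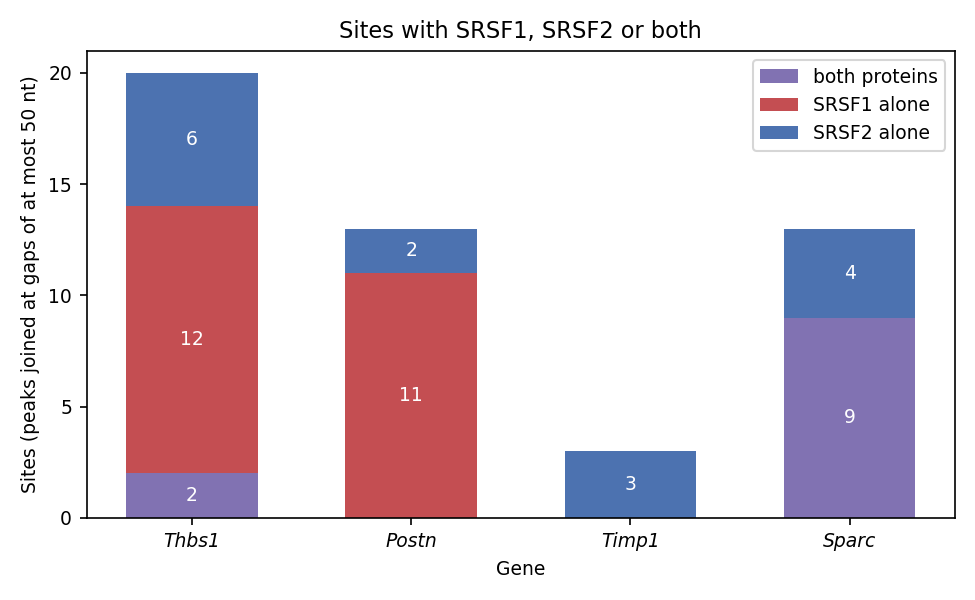
Number of sites per gene, a site being peaks of either protein joined at gaps of at most 50 nt, by the proteins they hold (both at the bottom, then SRSF1 alone and SRSF2 alone). Sparc has 9 shared sites of 13, Thbs1 2 of 20, and Postn and Timp1 none. The nongenic SRSF2 peak just before the first Thbs1 site is not counted.

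The lowest listed score differed between the genes. On Thbs1 it was 14 for SRSF1 and 16 for SRSF2, higher than in 97.8% and 97.9% of the genic units with at least 2 peaks in that list. On Sparc it was 9 and 11 (85.1% and 90.3% of units lower), on Timp1 9 for SRSF2 (78.2%), and on Postn 7 and 4 (61.6% and 0%). Of the 13 SRSF1 peaks of Postn, only the one with a score of 15 would reach the lowest SRSF1 score of Thbs1. Of the Thbs1 peaks 19 of 23 SRSF1 and 8 of 10 SRSF2 peaks were in the upper 10% of their lists, against 3 of 13 and 6 of 18 on Sparc and none on Postn and Timp1. The part of these differences in the shares above was not tested. Median peak widths were 25 and 17 nt on Thbs1, 22 and 24 nt on Sparc, 19 and 16.5 nt on Postn for SRSF1 and SRSF2, and 12 nt for SRSF2 on Timp1.

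Genes of the same pathways were mostly out of view, because most host units have no gene name. Of 28 matricellular genes, 4 had peaks that could be assigned, the members Thbs1, Postn and Sparc and also Tgfbi, an integrin-binding relative of periostin, with 0 SRSF1 and 2 SRSF2 peaks. Of 22 proteases and inhibitors 7 had peaks. Besides Timp1 they include Mmp11, stromelysin 3, with 9 SRSF1 and 4 SRSF2 peaks, Adam10 with 16 and 28, and Adam17 with 6 and 13, both membrane proteases that shed cell surface proteins. Mmp11 had at least 2 times as many SRSF1 peaks and Adam17 at least 2 times as many SRSF2 peaks, while Adam10 did not pass that ratio. Of the 987 genes with a symbol and at least 5 peaks, 12.3% passed it toward SRSF1 and 21.9% toward SRSF2. Nothing is therefore read from Mmp11 and Adam17. Of the 27 receptors and growth factor partners 4 had peaks, among them calreticulin (Calr), a partner of thrombospondin 1 at the cell surface, with 11 and 10. Of 25 structural matrix genes 3 had peaks, the collagen genes Col1a1 (55 and 52) and Col6a1 (24 and 24) and the laminin gene Lamc1 (33 and 49), none past that ratio. The median SRSF1 share of the genes with peaks was 55.8% in the matricellular list, where 3 of the 4 genes are members picked for their counts. It was 50% among proteases and inhibitors, 63.7% among receptors and partners and 50% among structural genes. Only 3 of the 7 protease and inhibitor genes and 1 of the 4 receptor and partner genes had at least 5 peaks. The medians of these lists thus rest mostly on genes with few peaks. Over all 2155 genes with a symbol the median share was 50%, and 46.7% over the 987 with at least 5 peaks. Pooled, the SRSF1 and SRSF2 peaks were 49 and 32 in the matricellular list and 36 and 52 among proteases and inhibitors (42.9% SRSF1 without Timp1). They were 15 and 12 among receptors and partners (55.6%) and 112 and 125 among structural genes (47.3%).

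Among the genes of these lists with at least 5 peaks, the overlapped share of SRSF1 peaks on Sparc, 84.6%, was nearest to that of Calr (81.8%, 9 of 11) and Col1a1 (72.7%, 40 of 55), followed by Adam10 (68.8%, 11 of 16). Lamc1 (18 of 33), Adam17 (3 of 6), Col6a1 (11 of 24) and Mmp11 (22.2%, 2 of 9) had lower shares, and Thbs1 with 13.0% and Postn with 0% the lowest. In SRSF2 peaks the order was another, with Calr at 90% (9 of 10), Col1a1 at 78.8% (41 of 52), Sparc at 61.1%, Mmp11 at 50% (2 of 4), Lamc1 at 46.9% (23 of 49), Col6a1 at 41.7% (10 of 24), Adam10 at 39.3% (11 of 28), Thbs1 at 30%, Adam17 at 23.1% (3 of 13) and Postn at 0%.

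**Figure D5:**
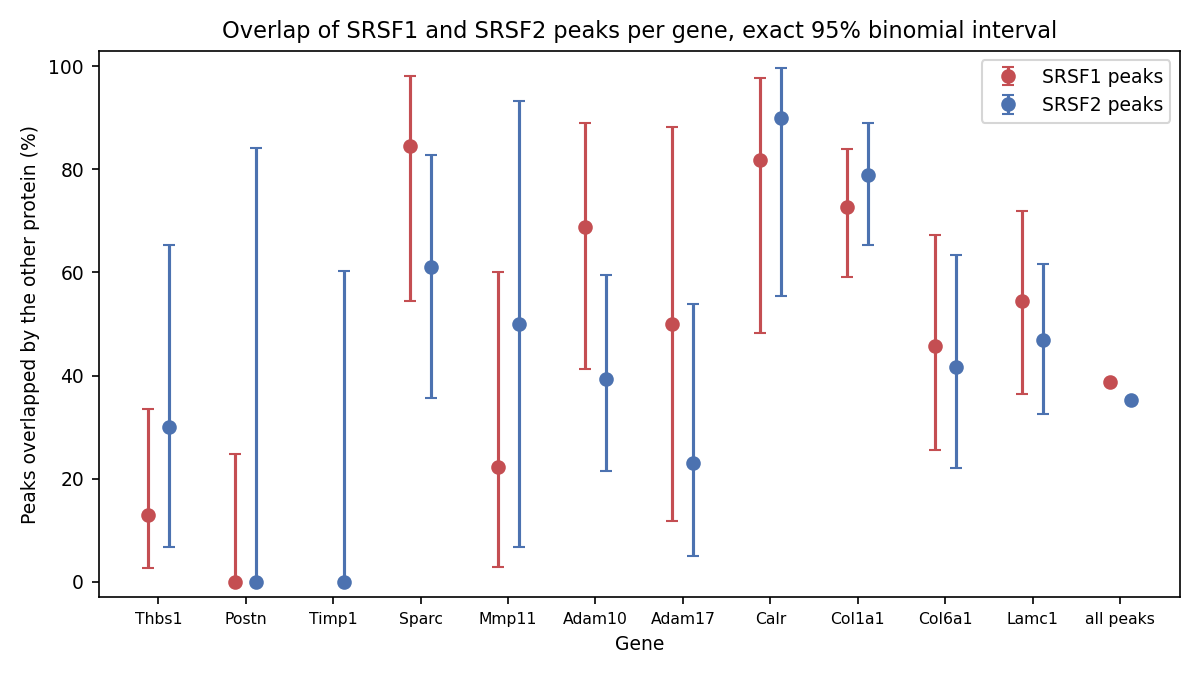
Share of SRSF1 peaks (red) and SRSF2 peaks (blue) overlapped by at least 1 nt by the other protein, in percent with exact 95% binomial intervals, for the 4 genes, for genes of the matrix lists with at least 5 peaks and over all peaks. Sparc at 84.6% and 61.1% lies above, and Thbs1 at 13.0% and 30% below, the 38.7% and 35.2% of all peaks.

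Genes near to the members by peak numbers, with likeness measured as the summed difference in log2(count + 1) over the 2 libraries, were found for Thbs1, Postn and Timp1. For Thbs1, Racgap1 (21 and 9 peaks of SRSF1 and SRSF2, 6 and 6 overlapped) and Ano6 (17 and 10, 5 and 6 overlapped) were near, at 0.26 and 0.41, and both had more overlap than Thbs1. For Postn the nearest were Fam168a (15 and 2, 1 and 1 overlapped), Erbb2 (10 and 2, 2 and 2 overlapped) and Ndc1 (9 and 2, none overlapped), at 0.19, 0.35 and 0.49. For Timp1, 14 genes had the same counts of 0 and 4, the first by name being Acot13, Alg9 and Armc1. The likeness is in numbers of peaks only.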

How the data were processed

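One peak list each for SRSF1 and SRSF2 was analysed. In each the authors deposited position, strand, name and score of every peak. The build is mm9, per the submitters' processing notes, and coordinates are given 1-based. The sources used here give neither aligner, peak caller nor threshold, and do not say what the deposited score measures. Read depth is unknown, and numbers of peaks are not a depth. Symbols for 2155 of 2169 RefSeq accessions came from a RefSeq table of GRCm38.p6, used for names only. The reference was of another build, so no exon, intron or sequence was assigned to a peak. Overlap meant at least 1 nt on the same strand; bedtools 2.31.1 gave the same counts in both lists (19724 and 19838), and the counting was tested on simulated lists. Shares carry exact (Clopper-Pearson) 95% intervals from SciPy 1.17.1 in Python 3.11.15. There is no test between 1 library and 1 library. The members, gene lists and alternatives were chosen with earlier results of these data known. The genes named were the 4 members, the list genes with at least 5 peaks, and for each member with a symbol the 3 genes with the nearest peak numbers, of which 1 is not reported here; Tgfbi was named after its values were seen. The peaks named were the 3 highest scores of each protein, overlapping pairs and the most remote peaks, with other peaks where a count rests on them. Alternatives were a score cut, merged peaks, equal list lengths, a common lowest score per gene, covered bases, other overlap rules, other minimum peak numbers and leaving out genes.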

Additional observations from a re-analysis of the deposited data

How the results depend on the processing

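No paired analysis was possible because each protein has 1 library and the result comes from no test. Of 73 alternative values 61 stayed within the interval of the main share or within 1.5 times the main count, and none changed the side on which a gene lay. Many could not move, and these are among the 61. Timp1 had no listed SRSF1 peak, so score cuts, merging, covered bases and numbered peaks left its share at 0%. Its SRSF2 peaks lay at least 12251 nt from SRSF1, and the nearest pair on Postn 201.5 nt apart, beyond every overlap rule. All listed scores of Thbs1 and Sparc exceeded 8, the median of both lists, so the score cut removed none. Reducing the longer list took out low-score SRSF2 peaks only and left Thbs1, Sparc and Timp1 as they were. Nongenic peaks within 2000 nt lay near Thbs1 only, so adding them changed no other gene. All 3 overlapped SRSF2 peaks of Thbs1 lay inside SRSF1 peaks, so asking for 50% of the shorter peak changed nothing there. Thbs1 fell below 2 times as many SRSF1 peaks in 3 of the alternatives. The share of Thbs1 ran from 60.0% to 75.2% and that of Sparc from 33.3% to 44.4%. The SRSF1 share of Postn was 100% with scores at or above the list median (51.6% of SRSF1 and 60.5% of SRSF2 peaks kept), with the longer list reduced and with a common lowest score, because both SRSF2 peaks had the lowest score. All SRSF1 peaks of Sparc met SRSF2, 100%, when midpoints within 50 nt counted or when peaks were resized to 50 nt, rules that are wider by construction. Genes with at least 2 times as many SRSF1 peaks numbered 41 and with SRSF2 80; they were 121 and 216 with at least 5 peaks, 12 and 20 with at least 20, and 24 and 47 with merged peaks, which change the genes that qualify. With scores at or above the median they were 8 and 70. Ties at the median keep a larger part of the SRSF2 list; the cause was not tested. Numbered peaks and nongenic peaks within 2000 nt were added as alternatives after seeing the data. Timp1, with 4 peaks, has no value for a common lowest score. That alternative sets 1 cut for both lists although the score ranks peaks within 1 list only, so its values are the least certain.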
